A study of Mus musculus with 48 samples.

Results

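Liver endothelial cells were followed through 7 marker genes, Cdh5, Pecam1, Kdr, Tek, Stab2, Lyve1 and Clec4g, out of 13542 genes tested. The genes were listed by name, and each was represented by the probe set that carried its symbol alone and had the highest mean over all 48 arrays. RNA of the median liver lobe was taken at 3 weeks of age from male or female F1 mice whose sires had been fed a control or low protein diet between weeks 3 and 12 of life, and was hybridized to Affymetrix gene arrays. Each sire diet was combined with 3 genotype labels of the offspring: wild-type, ATF7+/- (heterozygous for the transcription factor gene Atf7) and ATF7+/+. The labels do not say how the ATF7+/+ offspring differ from the wild-type ones. The 6 groups held 8 arrays each, described as independent experiments, and are called here by label and sire diet, such as wild-type control and wild-type low protein. Sires, mothers and litters are not identified, so p-values measure the spread between these samples.

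Endothelial cells line every vessel, and in the liver most belong to the sinusoids, whose perforated lining lets plasma reach the hepatocytes. Sinusoidal endothelium is known as a scavenger lining: it clears hyaluronan and other waste molecules from blood and carries lectins that are rare on other vessels. It also holds its junctions with VE-cadherin and responds to the growth factors VEGF and angiopoietin, as other endothelium does. In RNA of a whole lobe, fewer endothelial cells and less RNA per endothelial cell cannot be told apart.

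The stretch of 250 bases before the transcription start was held for 4 of the 7 genes, from RefSeq on mouse build GRCm38.p6. It lay at chr5:75978456-75978705 on the minus strand for Kdr, at chr4:94739039-94739288 on the plus strand for Tek, at chr10:87007943-87008192 on the minus strand for Stab2 and at chr8:3720652-3720901 on the minus strand for Clec4g. These 4 are shown because the table of promoters held them; they include Kdr and Tek, which varied together across samples. Capitals mark the core of ETS factors, a family used widely in endothelial genes, searched as AGGAA or CGGAA on both strands.
Kdr: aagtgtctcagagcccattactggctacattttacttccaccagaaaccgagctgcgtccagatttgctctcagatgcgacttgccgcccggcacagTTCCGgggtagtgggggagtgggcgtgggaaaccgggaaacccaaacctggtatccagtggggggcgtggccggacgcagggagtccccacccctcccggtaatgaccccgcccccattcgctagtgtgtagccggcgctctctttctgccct
Tek: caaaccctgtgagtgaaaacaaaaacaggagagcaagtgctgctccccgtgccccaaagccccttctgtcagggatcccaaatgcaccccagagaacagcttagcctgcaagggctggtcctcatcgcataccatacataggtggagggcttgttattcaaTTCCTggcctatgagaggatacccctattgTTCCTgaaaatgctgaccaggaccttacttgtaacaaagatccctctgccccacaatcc
Stab2: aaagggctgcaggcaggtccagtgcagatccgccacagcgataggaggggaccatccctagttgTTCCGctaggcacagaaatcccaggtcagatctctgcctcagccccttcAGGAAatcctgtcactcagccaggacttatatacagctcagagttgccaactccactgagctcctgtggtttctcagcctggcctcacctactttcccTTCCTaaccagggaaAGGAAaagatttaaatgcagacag
Clec4g: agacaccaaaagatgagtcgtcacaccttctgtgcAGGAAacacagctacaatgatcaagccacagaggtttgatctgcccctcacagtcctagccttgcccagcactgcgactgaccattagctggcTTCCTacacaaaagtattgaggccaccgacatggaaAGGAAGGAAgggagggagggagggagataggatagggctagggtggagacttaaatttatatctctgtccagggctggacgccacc

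The Kdr stretch held 1 match, the Tek stretch 2, and the Stab2 and Clec4g stretches 4 each, 2 of those in Clec4g overlapping. The core was common: 71.4% of 32851 RefSeq promoters of this length held it, with a median of 1 match. Of the GATA motif, only the forms AGATAA and TGATAA were searched, on both strands. These forms had no match in any of the 4 stretches and were present in 16.6% of all promoters. Forms ending in G were not searched, such as the agatag in the Clec4g stretch. The promoters of Cdh5, Pecam1 and Lyve1 were not printed.

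All values are log2 expression, so a difference of 1 is a doubling, and levels of different probe sets are not comparable. All 7 markers had a mean above 5.46, the minimum for testing. Pairs of nearly identical arrays in the wild-type control and ATF7+/+ control groups were averaged, which left 46 samples, 7 in each of those groups and 8 in the others. By probe sets without an annotation, the arrays fell into a set A of 18 and a set B of 30, with 3 and 5 arrays of every group; the labels do not name these sets. Y-linked RNA was high on 32 arrays and low on 16. Albumin (Alb) lay between 13.32 and 13.70 in every sample; it is the main plasma protein made by hepatocytes. Atf7 itself was 0.37 ± 0.06 (SE) lower in ATF7+/- than in ATF7+/+ offspring (adjusted p = 0.00124, limma) and 0.20 ± 0.06 lower than in wild-type (adjusted p = 0.242); whether its probe set covers the altered part of the gene is not given.

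In the fit of group means alone over all samples, Cdh5 was the only marker called for sire diet, and only in wild-type offspring. The wild-type differences of Clec4g (0.34) and Lyve1 (0.30) were of like size but were not called. Whether the diet difference of Cdh5 exceeded theirs was not tested. Cdh5 encodes VE-cadherin, the cadherin of endothelial adherens junctions. In the wild-type control group its level had a lowest value of 8.79, a median of 9.07 and a highest value of 9.54, with a mean of 9.09 ± 0.24 (SD, n = 7). In the wild-type low protein group it ran from 9.19 through a median of 9.46 to 9.57, with a mean of 9.43 ± 0.12 (SD, n = 8). The groups overlapped through control replicate 3, at 9.54, and control replicate 7, at 9.24, which lay above the lowest low protein sample; the other control samples lay below every low protein sample. The difference was 0.34 ± 0.08 (SE; 95% interval 0.18 to 0.51), a 1.27-fold higher level after the low protein diet (adjusted p = 0.0105, limma). Of the 13542 genes tested, 3.6% were called in this comparison and 2.78% were called higher, against 1 of 7 markers. Adjusted p was 0.0998 when the spread came from the wild-type groups alone and 0.0526 without wild-type control replicate 8, with a difference of 0.29. Within set A the difference was 0.45 ± 0.11 (adjusted p = 0.00885) and within set B 0.27 ± 0.11 (adjusted p = 0.152).

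The other 4 groups of Cdh5 lay between these levels or beside the upper one. ATF7+/- control samples ran from 9.32 through 9.49 to 9.69, with a mean of 9.47 ± 0.14 (SD, n = 8). ATF7+/- low protein samples ran from 9.26 through 9.39 to 9.53, with a mean of 9.39 ± 0.09 (SD, n = 8). ATF7+/+ samples had means of 9.28 ± 0.19 (SD, n = 7) after the control diet and 9.26 ± 0.12 (SD, n = 8) after the low protein diet. In the order of the 6 group means, the wild-type control group was the lowest and the ATF7+/- control group the highest, 0.38 apart, while no neighbours differed by more than the larger of their SDs.

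**Figure D1:**
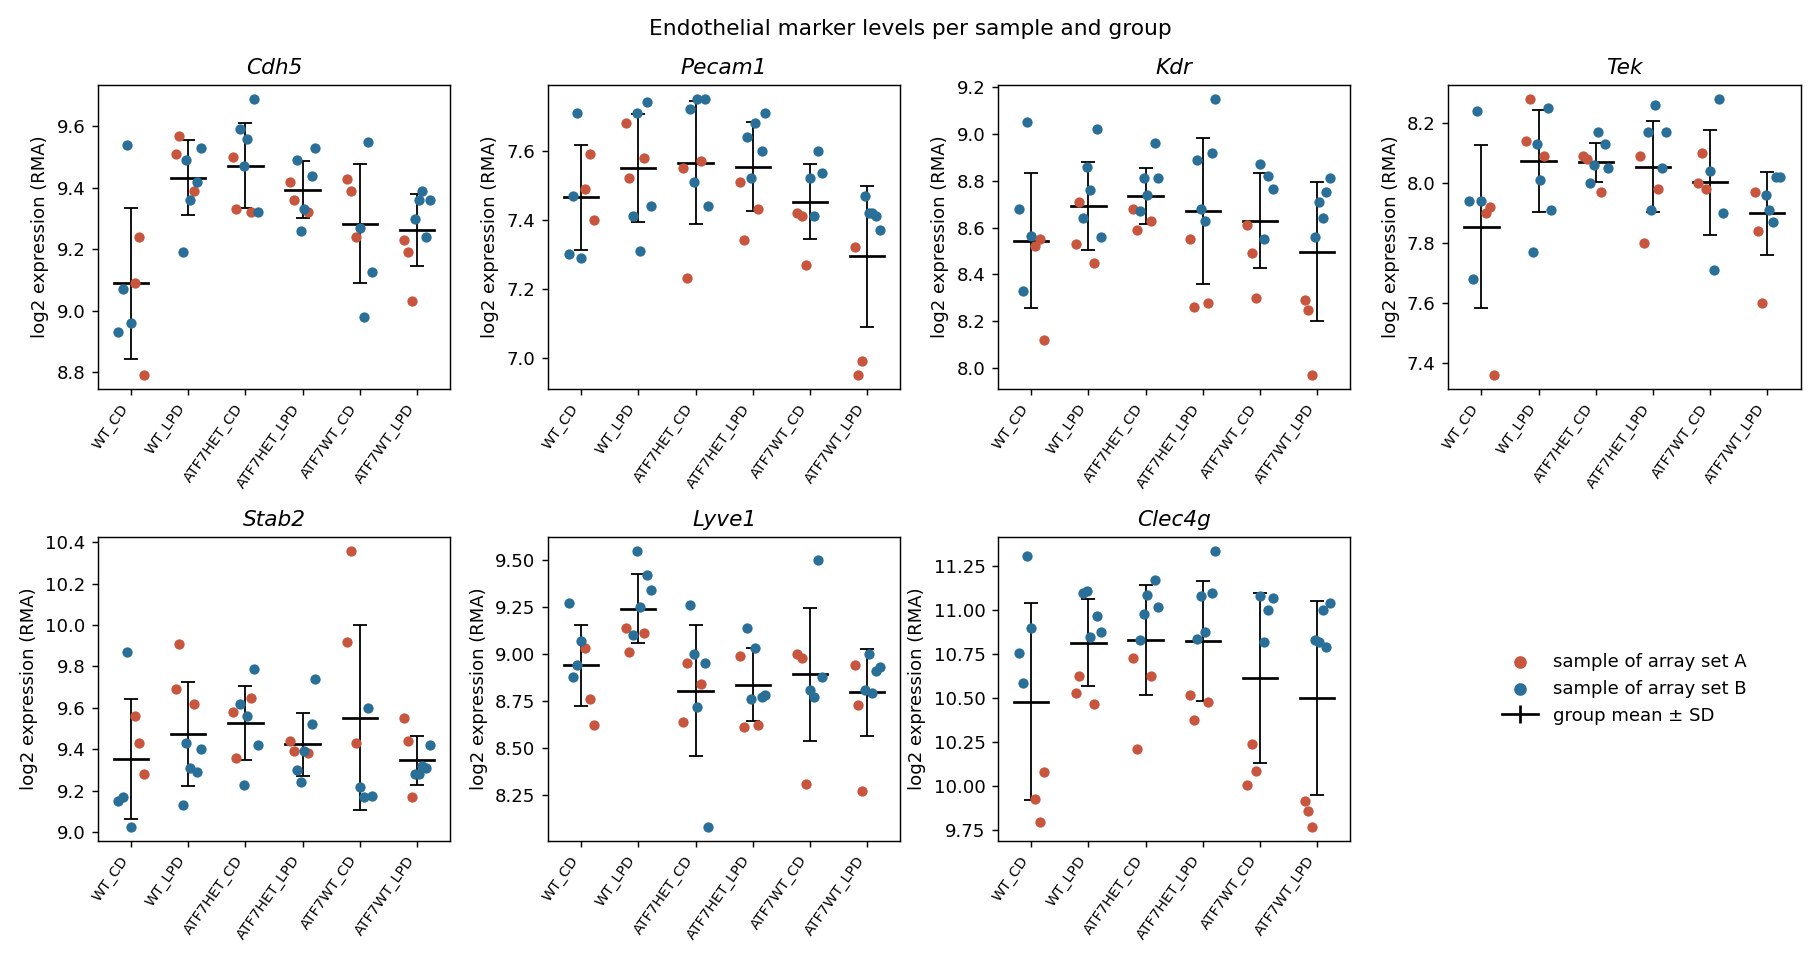
Log2 expression (y axis) of each marker in each sample, by group (x axis; WT wild-type, ATF7HET ATF7+/-, ATF7WT ATF7+/+, CD control and LPD low protein diet of the sire); points are samples coloured by array set, and black lines are group means ± SD. Cdh5 is lower in most wild-type control samples than in wild-type low protein samples, and in every group the Clec4g points of set A lie below those of set B.

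Pecam1, which encodes the adhesion molecule CD31 of endothelial contacts and platelets, moved less. Its wild-type control samples ran from 7.29 through 7.47 to 7.71 and its low protein samples from 7.31 through 7.55 to 7.74, an almost complete overlap. The difference was 0.08 ± 0.08 (SE; 95% interval -0.08 to 0.25; adjusted p = 0.699). The lowest group was ATF7+/+ low protein, with values from 6.95 through 7.39 to 7.47 and a mean of 7.29 ± 0.20 (SD, n = 8). Replicates 2 and 3 of that group, at 6.95 and 6.99, lay below every other sample of the series, and both belonged to set A. The highest Pecam1 mean was that of the ATF7+/- control group, 7.57 ± 0.18 (SD, n = 8), and neighbouring means did not differ beyond the larger SD.

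Among the receptors, Kdr encodes VEGF receptor 2, the main signalling receptor for VEGF-A on endothelium. Kdr ran from 8.12 through 8.55 to 9.05 in wild-type control samples and from 8.45 through 8.68 to 9.02 in wild-type low protein samples. Control replicate 3 was again the highest and control replicate 8 the lowest, so that the low protein samples fell within the control range. The difference was 0.15 ± 0.12 (SE; 95% interval -0.10 to 0.40; adjusted p = 0.641). Group means of Kdr lay between 8.50 ± 0.30 (SD, n = 8; ATF7+/+ low protein) and 8.74 ± 0.12 (SD, n = 8; ATF7+/- control).

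Tek encodes TIE2, the receptor for the angiopoietins. Its wild-type control samples ran from 7.36 through 7.92 to 8.24 and its wild-type low protein samples from 7.77 through 8.11 to 8.28. Replicate 8 of the control group was the lowest sample of the series, and the groups overlapped. The difference was 0.22 ± 0.09 (SE; 95% interval 0.04 to 0.40; adjusted p = 0.19). It was 0.44 ± 0.13 within set A (adjusted p = 0.0299) and 0.06 ± 0.11 within set B (adjusted p = 0.789). The tightest Tek group was ATF7+/- control, from 7.97 to 8.17, with a mean of 8.07 ± 0.06 (SD, n = 8).

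Stab2 and Lyve1 both bind hyaluronan. Stab2 encodes stabilin-2, the scavenger receptor that removes hyaluronan from blood, and it ran from 9.03 through 9.28 to 9.87 in wild-type control samples and from 9.13 through 9.42 to 9.91 in wild-type low protein samples. The difference of Stab2 was 0.12 ± 0.13 (SE; 95% interval -0.14 to 0.38; adjusted p = 0.74), within overlapping ranges. The ATF7+/+ control group had the highest Stab2 mean and the widest spread, 9.55 ± 0.45 (SD, n = 7), since replicates 1 and 2, at 9.92 and 10.36, stood above the highest of its other samples, 9.60. Both replicates belonged to set A.

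Lyve1 encodes a hyaluronan receptor shared by sinusoidal and lymphatic endothelium. It was highest in wild-type low protein samples, which ran from 9.01 through 9.20 to 9.55 with a mean of 9.24 ± 0.18 (SD, n = 8). Wild-type control samples ran from 8.62 through 8.94 to 9.27, with a mean of 8.94 ± 0.21 (SD, n = 7). The step between these groups, 0.30, was the one pair of neighbouring means among the 7 markers that differed by more than the larger SD. It did not pass the test across all genes (0.30 ± 0.13 SE; 95% interval 0.03 to 0.57; adjusted p = 0.242), and was of like size within both array sets (0.28 for A and 0.29 for B). The other Lyve1 means lay between 8.80 ± 0.23 (SD, n = 8; ATF7+/+ low protein) and 8.89 ± 0.35 (SD, n = 7; ATF7+/+ control), and replicate 8 of ATF7+/- control was the lowest sample, at 8.08.

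Clec4g encodes LSECtin, a C-type lectin of sinusoidal endothelium. Wild-type control samples ran from 9.80 through 10.59 to 11.31, with a mean of 10.48 ± 0.56 (SD, n = 7), and wild-type low protein samples from 10.47 through 10.87 to 11.11, with a mean of 10.82 ± 0.25 (SD, n = 8). The difference was 0.34 ± 0.21 (SE; 95% interval -0.09 to 0.77; adjusted p = 0.485). This spread followed the array sets. In each of the 6 groups every set A sample lay below every set B sample, and the group means fitted together put set A 0.73 below set B, a shift larger in size than that of 96.2% of all genes. The same shift was -0.32 for Kdr, -0.18 for Lyve1, -0.13 for Pecam1, -0.06 for Tek, -0.04 for Cdh5 and 0.19 for Stab2, against a median size of 0.18 over all genes.

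Within set A, Clec4g separated groups that overlapped in set B. Set A samples of the wild-type control group lay from 9.80 to 10.08 and those of the wild-type low protein group from 10.47 to 10.63, with no overlap. The difference there was 0.61 ± 0.12 (SE; adjusted p = 0.00259, limma), and 15.6% of all genes were called in that comparison of 3 against 3 samples. In set B the wild-type control samples lay from 10.59 to 11.31 and the low protein samples from 10.85 to 11.11, and the difference was 0.09 ± 0.11 (adjusted p = 0.702; 4.72% of genes called). With the array set as a block, the difference was 0.30 ± 0.10 (adjusted p = 0.0511; 9.26% called). Whether the diet difference itself differed between the sets was not tested. A second, dim Clec4g probe set, with a mean of 4.95 and below the minimum for testing, differed by 0.00 ± 0.09 (adjusted p = 0.992).

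All 7 marker means were higher in the wild-type low protein than in the wild-type control group, with a median difference of 0.22; over all genes the median was 0.00 and 51.0% were higher. The 3 markers with an unadjusted p under 0.05 (limma) were Cdh5, Tek and Lyve1, and 15.9% of all genes were under it. Averaged over the 7 markers after centring each gene, the wild-type control samples lay from -0.40 to 0.31 and the low protein samples from -0.02 to 0.26. Some genes of other lists were called in the same comparison, where 3.6% of all genes were called. Of 12 stellate cell and fibroblast genes, 3 were higher in the wild-type low protein group, namely Acta2 (0.67), Lrat (0.53) and Reln (0.42), and the list mean ran from -0.52 to 0.04 in control and from -0.01 to 0.19 in low protein samples. Of 10 cell cycle genes, 8 were higher, among them Mki67 (1.55) and Top2a (1.21), with list means from -1.13 to 0.82 and from -0.04 to 1.05. Of 3 erythroid genes Alas2 was higher (0.84), with list means from -0.82 to 0.61 and from -0.28 to 0.97. None of 10 Kupffer cell genes and none of 7 hepatocyte genes was called; their list means ran from -0.30 to 0.49 and from -0.37 to 0.34 for Kupffer cells, and from -0.12 to 0.06 and from -0.14 to 0.12 for hepatocytes. Clec4f, a Kupffer cell lectin, differed by -0.04 and Alb by -0.04. The part of these lists in the Cdh5 difference was not tested.

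In set A the clock genes also differed between the wild-type groups. Of 11 circadian clock genes, 2 were higher and 7 lower after the low protein diet there, where 15.6% of all genes were called. Arntl stood at 2.24, Ciart at -3.72 and Per3 at -2.27. In set B no clock gene was called, where 4.72% of all genes were. Cell cycle genes were called higher in set A in 9 of 10 cases, with a list median of 1.02, and in none of 10 in set B, with a list median of 1.03. The part of either list in the set A differences of Clec4g, Cdh5 and Tek was not tested.

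Sire diet gave no call among the markers in the other genotypes. In ATF7+/- offspring the differences lay from -0.10 (Stab2) to 0.03 (Lyve1), and 0 of 7 markers were called (adjusted p = 1 for each, limma), where 0% of all genes were called and 178 genes had an unadjusted p under 0.05. The 95% interval for Cdh5 there was -0.24 to 0.08. In ATF7+/+ offspring all 7 means were lower after the low protein diet, from -0.21 ± 0.13 (SE; Stab2) to -0.02 ± 0.08 (SE; Cdh5), with a median of -0.11, and none was called (adjusted p = 0.9995 for each; 0.00738% of genes called). Averaged over the 3 genotype labels, the differences lay from -0.06 (Stab2) to 0.08 (Cdh5), and 0 of 7 markers were called, where 0.805% of genes were. None of the 7 markers had an unadjusted p under 0.05 (limma) in this average, within ATF7+/- or within ATF7+/+ offspring. Of all genes 10.1%, 1.31% and 4.59% were under it in these comparisons.

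The difference between genotypes was tested on its own. The Cdh5 diet difference was 0.42 ± 0.11 (SE; 95% interval 0.19 to 0.65) larger in wild-type than in ATF7+/- offspring, which missed the threshold (adjusted p = 0.0729, limma; 0.635% of genes called). It missed the threshold also with no filter on low values (0.42, adjusted p = 0.103), in set A alone (0.47, adjusted p = 0.128) and in set B alone (0.39, adjusted p = 0.222). It passed with the array set as a block (0.42, adjusted p = 0.0354), where 2.21% of genes were called. It passed too when all 48 arrays were kept (0.44, adjusted p = 0.0455), a fit that counts the nearly identical arrays as separate samples. Leaving out wild-type control replicate 3 (0.50, adjusted p = 0.00892) or wild-type low protein replicate 3 (0.46, adjusted p = 0.0464) also gave a pass. These were the highest control and the lowest low protein values of Cdh5 in wild-type offspring. The Cdh5 diet difference missed with only the groups compared (0.42, adjusted p = 0.0846) and with median centring (0.44, adjusted p = 0.113). A Y-linked covariate (0.43, adjusted p = 0.0581) and replicate number as a block (0.43, adjusted p = 0.0938) gave misses too. Against ATF7+/+ offspring the Cdh5 diet difference was 0.37 ± 0.12 larger in wild-type (SE; 95% interval 0.13 to 0.60; adjusted p = 0.30; 0.0222% of genes called). The remaining markers had differences in the same direction, from 0.10 (Pecam1) to 0.34 (Clec4g) against ATF7+/- and from 0.24 (Pecam1) to 0.45 (Clec4g) against ATF7+/+, and none was called. Counting Cdh5, 1 marker in the first test and 4 in the second had an unadjusted p under 0.05, as did 9.25% and 7.06% of all genes. Both tests share the wild-type groups. In set A alone, Clec4g passed against ATF7+/- (0.67, adjusted p = 0.0408, 2.07% of genes called) and against ATF7+/+ (0.87, adjusted p = 0.0112, 3.08% called). Cdh5 passed against ATF7+/+ in set A as well (0.65, adjusted p = 0.0231) and missed in set B (0.17, adjusted p = 0.811). Between ATF7+/+ and ATF7+/- offspring, 0 of 7 markers and 0% of all genes were called.

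**Figure D2:**
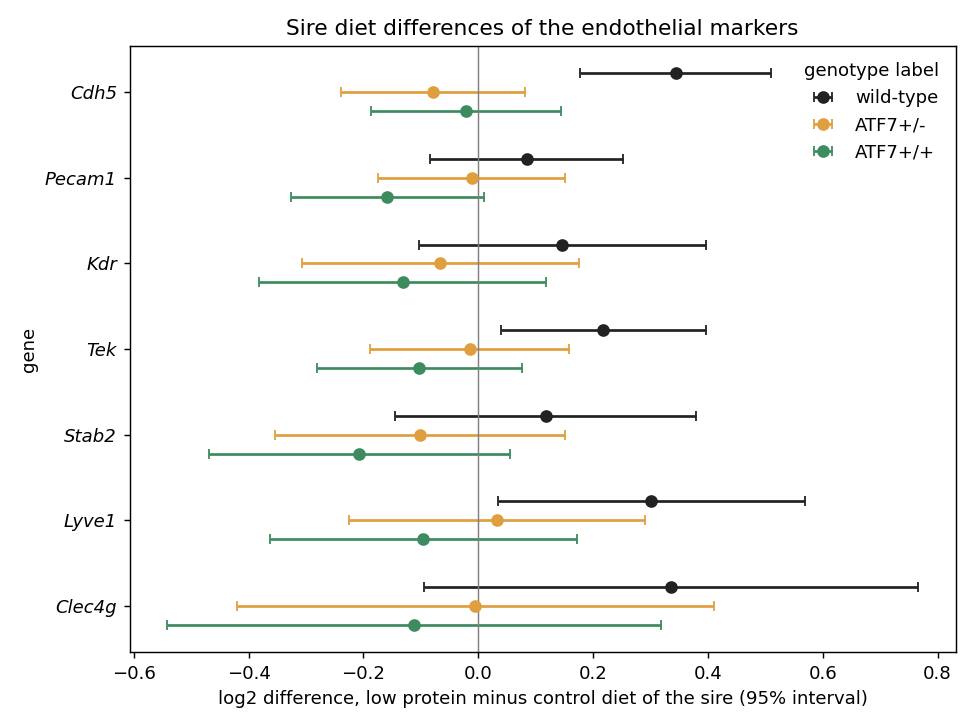
Log2 difference of each marker (y axis) between offspring of low protein and control diet sires (x axis, low protein minus control); points are limma estimates and bars 95% intervals, coloured by genotype label. The wild-type interval of Cdh5, 0.18 to 0.51, lies above 0, as do those of Tek and Lyve1, which did not pass after adjustment; every ATF7+/- and ATF7+/+ interval includes 0.

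Averaged over both sire diets, none of the 7 markers differed between genotype labels by limma's test across all genes, though 2 had an unadjusted p under 0.05 in each of the 3 label comparisons. Of all genes 6.82% were under it for ATF7+/- against wild-type, 12.4% for ATF7+/+ against wild-type and 11.4% for ATF7+/- against ATF7+/+. ATF7+/- offspring had Cdh5 0.17 ± 0.06 (SE) above wild-type (adjusted p = 0.382) and Lyve1 0.27 ± 0.09 below it (adjusted p = 0.443), where 0.00738% of genes were called. ATF7+/+ offspring had Lyve1 0.24 ± 0.09 (adjusted p = 0.236) and Pecam1 0.13 ± 0.06 (adjusted p = 0.326) below wild-type, where 0.0222% of genes were called. Within set A, Pecam1 was called 0.32 ± 0.08 (adjusted p = 0.00627) and Clec4g 0.26 ± 0.08 (adjusted p = 0.0259) below wild-type, in a comparison that called 28.6% of all genes. Other lists moved with them there: 9 of 10 Kupffer cell genes were lower (list median -0.60), and of 11 clock genes 2 were higher and 6 lower. Y-linked RNA was low in 2 of the 6 wild-type, 2 of the 6 ATF7+/- and 0 of the 6 ATF7+/+ samples of set A. Between ATF7+/- and ATF7+/+ offspring, Pecam1 was 0.19 ± 0.06 higher (adjusted p = 0.159) and Cdh5 0.16 ± 0.06 higher (adjusted p = 0.225) in ATF7+/-, where 0.155% of genes were called. Clec4g was 0.27 ± 0.15 higher, with an unadjusted p of 0.0751 (adjusted p = 0.494). With the array set as a block the differences were 0.18 ± 0.05 for Pecam1 (adjusted p = 0.0442) and 0.25 ± 0.07 for Clec4g (adjusted p = 0.0368), with 3.24% of genes called. The Clec4g difference was 0.51 ± 0.08 in set A (adjusted p = 0.000428; 22.8% of genes called) and 0.09 ± 0.08 in set B (adjusted p = 0.848; 0% called). In set A the ATF7+/+ samples of Clec4g lay from 9.77 to 10.24 over both diets and the ATF7+/- samples from 10.21 to 10.73, so that they met at 1 sample of each. In the same set A comparison 7 of 10 Kupffer cell genes were higher in ATF7+/- (list median 0.53), and of 11 clock genes 6 were higher and 2 lower. The Kupffer cell list mean in set A was -0.56 and -0.51 in ATF7+/+ control and low protein samples, -0.19 and 0.05 in ATF7+/- and 0.10 and 0.05 in wild-type. The part of these lists and of Y-linked RNA in the set A differences of Clec4g and Pecam1 was not tested.

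The rest of the endothelial programme was read from lists of other genes. In the wild-type diet comparison 3.6% of all genes were called by limma, 15.9% had an unadjusted p under 0.05 and 51.0% were higher. Of 25 general endothelial genes none was called there (5 had an unadjusted p under 0.05), 22 means were higher and the list median was 0.10. The smallest p belonged to Emcn, which encodes the sialomucin endomucin (0.49 ± 0.17 SE, adjusted p = 0.0984), and to Ecscr, an endothelial surface protein (0.22 ± 0.09, adjusted p = 0.194). Of 19 sinusoidal genes none was called (3 under 0.05 unadjusted), 15 means were higher and the median was 0.13. Wnt2, a Wnt ligand of sinusoidal endothelium, differed by 0.39 ± 0.12 (adjusted p = 0.0708). Bmp6, a ligand through which this endothelium controls hepcidin, differed by -0.38 ± 0.13 (adjusted p = 0.0812). In ATF7+/+ offspring 20 of the 25 general and 13 of the 19 sinusoidal means were lower after the low protein diet. The medians were -0.10 and -0.12 with no calls, where 0.00738% of all genes were called and 52.5% were higher.

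Ligands and partners of the markers were read in the same wild-type comparison, where 3.6% of all genes were called and 15.9% were under 0.05 unadjusted. Of 11 tested genes of the VEGF and angiopoietin pathway none was called (2 under 0.05 unadjusted), 9 means were higher and the median was 0.12. Vegfc, a ligand of VEGF receptor 3, differed by 0.17 ± 0.08 (SE, adjusted p = 0.233), and the co-receptor Nrp1 by 0.29 ± 0.13 (adjusted p = 0.256). Of 10 junction partners none was called (4 under 0.05 unadjusted), with 6 means higher and a median of 0.09. Ctnnb1, which encodes the beta-catenin that binds VE-cadherin, differed by 0.14 ± 0.05 (adjusted p = 0.135) and the tight junction molecule F11r by -0.26 ± 0.10 (adjusted p = 0.176). Of the hyaluronan list 4 genes of uptake and breakdown were tested, Cd44, Stab1, Hyal2 and Cemip2, and none was called (0 under 0.05 unadjusted; median 0.00); the synthase genes Has1, Has2 and Has3 were below the minimum for testing. The receptor Cd44 differed by -0.06 and Stab1, the paralog of Stab2, by 0.01.

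Within set A, where 15.6% of all genes were called, more of these genes passed in wild-type offspring. There, Emcn (0.83), Adgrl4 (0.55), Calcrl (0.57) and Esam (0.34) were called higher among the 25 general genes. Among the 19 sinusoidal genes, Rspo3 (0.64), Kit (0.39), Gpr182 (0.47), Wnt2 (0.52), Dnase1l3 (0.44) and Gata4 (0.43) were called higher and Bmp6 (-0.71) lower. Flt1 (0.48), the VEGF receptor 1 gene, and Vegfc (0.39) were called higher in the pathway. Of the 10 junction partners, Ctnnb1 (0.35), Jam2 (0.52) and Esam (0.34) were called higher and F11r (-0.51) lower. In set B, where 4.72% of all genes were called, none of the genes of these lists was called. The list medians there were 0.08 for general, 0.02 for sinusoidal, 0.05 for pathway and 0.00 for junction genes.

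**Figure D3:**
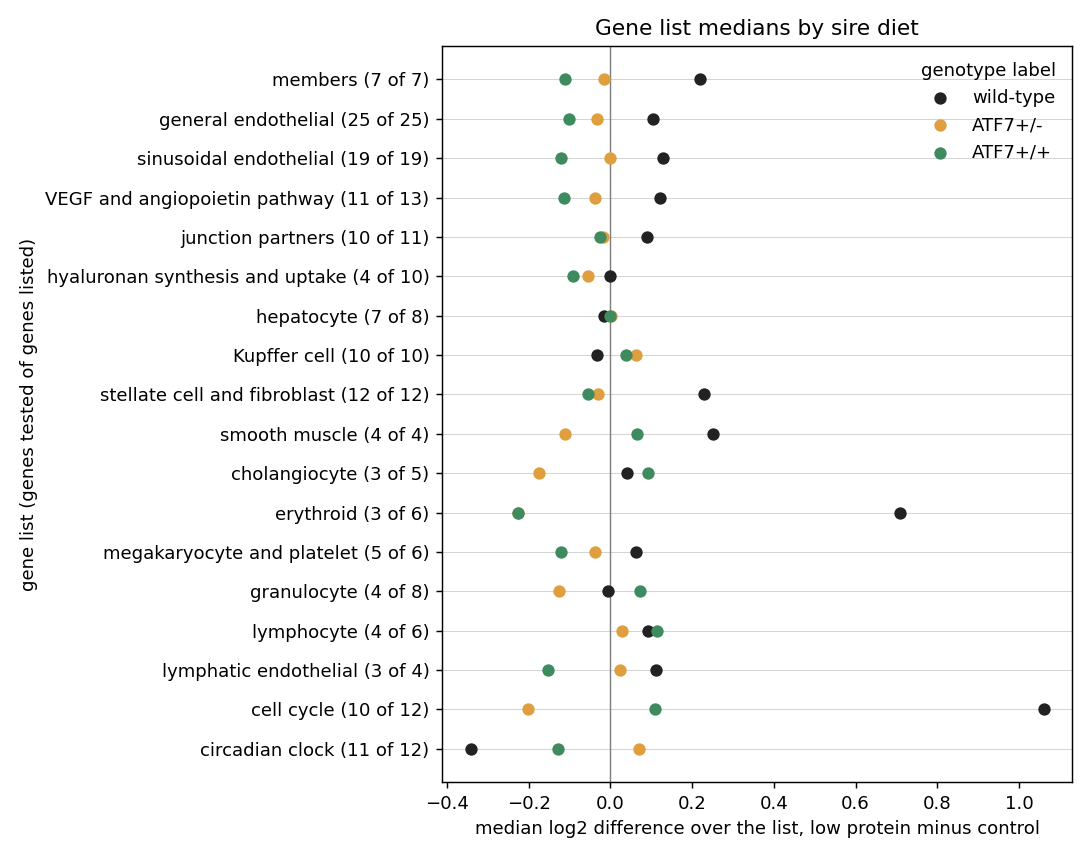
Median log2 difference between low protein and control diet of the sire (x axis) over each gene list (y axis, with genes tested of genes listed), by genotype label. In wild-type offspring the markers stand at 0.22, beside stellate cell genes at 0.23 and below cell cycle genes at 1.06; in ATF7+/+ offspring they stand at -0.11.

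Apart from the group means, most pairs of markers correlated positively from sample to sample. Deviations from the mean of each group and array set were correlated for the 21 pairs of markers in each set, 42 correlations in all. Permutation p-values were adjusted over all 42. Subtracting these means leaves fewer independent deviations than samples. The p-values lie near those for as many independent samples, so they may be too small and the counts below too high. In set A (n = 18) 19 of 21 correlations were positive, with a median r of 0.48, and 8 had an adjusted p under 0.05. In set B (n = 28) 20 of 21 were positive, with a median r of 0.56, and 13 had an adjusted p under 0.05. The highest in set A was that of Cdh5 with Kdr, Pearson r = 0.89 and Spearman rho = 0.89 (permutation p = 1e-05 for each, the smallest that the permutations can give; adjusted p = 0.00014 and 0.00042). It was 0.86 without the 2 samples farthest from the Cdh5 median, and in set B r was 0.56 and rho 0.50 (permutation p = 0.002 and 0.00776; adjusted p = 0.0056 and 0.0204; r = 0.42 without 2 samples).

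The receptors Kdr and Tek, whose promoters are shown above, had r = 0.86 and rho = 0.86 in set A (permutation p = 1e-05 and 4e-05; adjusted p = 0.00014 and 0.00056; r = 0.76 without 2 samples). In set B they had r = 0.70 and rho = 0.63 (permutation p = 4e-05 and 0.00044; adjusted p = 0.00028 and 0.00308; r = 0.57 without 2 samples). Cdh5 and Stab2 were the closest pair in set B, with r = 0.85 and rho = 0.80 (permutation p = 1e-05 and 2e-05; adjusted p = 0.00014 and 0.00042; r = 0.74 without 2 samples), against r = 0.55 and rho = 0.67 in set A (permutation p = 0.0199 and 0.003; adjusted p = 0.0398 and 0.0125). Clec4g and Kdr had r = 0.71 and rho = 0.58 in set B (permutation p = 3e-05 and 0.00147; adjusted p = 0.00028 and 0.00686; r = 0.54 without 2 samples) and r = 0.06 and rho = 0.07 in set A (permutation p = 0.804 and 0.779; adjusted p = 0.866 and 0.798). Lyve1 and Clec4g had negative coefficients in both sets, r = -0.04 and rho = -0.02 in set A (permutation p = 0.869 and 0.928) and r = -0.20 and rho = -0.23 in set B (permutation p = 0.303 and 0.238), none past the threshold.

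**Figure D4:**
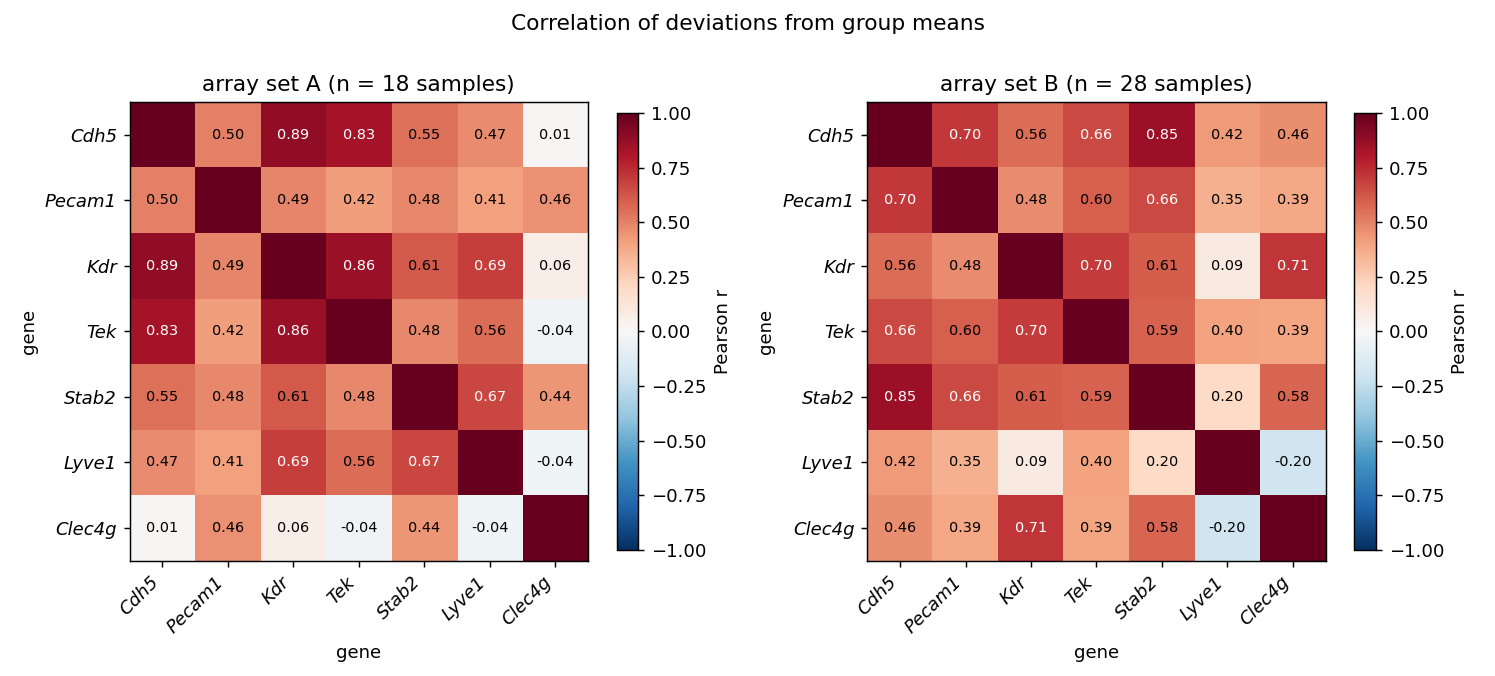
Pearson r between each pair of markers (both axes list the 7 genes) over samples of array set A (left, n = 18) and set B (right, n = 28), after the mean of each group and set was subtracted; colour runs from -1 to 1. Most cells are positive (median 0.48 for set A, 0.56 for set B), and the Clec4g and Lyve1 rows hold the weakest values.

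The tested genes most like each marker were taken by Pearson r over the 46 samples with the same centring, as a description. Kdr was closest to Mmrn2 (0.76), an endothelial matrix glycoprotein, to Tek (0.75) and to Oit3 (0.75), and Tek to Kdr (0.75), Dlc1 (0.73) and Adgrl4 (0.72). Stab2 was closest to Slc9a9 (0.85), Armcx4 (0.79) and its paralog Stab1 (0.78), and Pecam1 to Msn (0.70), Oit3 (0.69) and Col14a1 (0.68). Cdh5 was closest to genes outside the endothelial lists, Col14a1 (0.82), Fetub (0.77) and Adgre5 (0.75). Lyve1 was closest to Mest (0.73), Elk3 (0.68) and Upk3b (0.64), and Clec4g to 4930523C07Rik (0.77), Slc17a2 (0.73) and Jam2 (0.73). Of the 50 genes most like each marker, 12 were on an endothelial list for Kdr, 10 for Pecam1, 9 each for Cdh5 and Tek, 8 for Stab2, and 2 each for Lyve1 and Clec4g, out of 51 such genes tested.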

How the data were processed

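Total RNA of liver was labelled and hybridized to Affymetrix gene arrays. The values are log2 expression per probe set, deposited by the authors; the submitters' processing notes name RMA and Affymetrix Expression Console. They were used with no further normalization. The number of arrays limits the precision, since arrays have no depth. Probe sets with a single symbol in the platform annotation were kept (21789 of 23410), 1 per gene by highest mean, and genes above the 40th percentile of all means (5.46) were tested. Arrays of a group that differed far less than others (2 of 78 pairs, ratio 1.29 against 1.92 to 5.20) were averaged. Groups came from the labels. limma 3.58.1 in R 4.3.3 fitted 6 group means over 46 samples, with Benjamini-Hochberg adjustment over 13542 genes and a threshold of 0.05, for 10 comparisons; it was tested on simulated data. Correlation p-values came from 100000 permutations, two-sided.

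The members and lists were chosen with earlier results of these data known. The genes named were the 7 markers, from each endothelial or pathway list those called or else the 2 of smallest p in the wild-type diet comparison, up to 2 defining markers of other cell types, and the 3 genes most correlated with each marker; those named for set A, beyond this rule, and the further cell cycle, clock and stellate genes were chosen after their values were seen. Alternatives were a replicate block, the array set as a block or alone, array weights, other filters and scalings, a Y-linked covariate, all 48 arrays, only the groups compared, and each sample left out.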

Additional observations from a re-analysis of the deposited data

Results flagged for a closer look

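2 values stood far from the rest of their group by Dixon's test, among 42 marker and group combinations checked; chance flags about 1 in 20. Both were in replicate 3 of the ATF7+/+ low protein group, an array of set A. Tek was 7.6 there, against 7.84 to 8.02 in the other 7 samples, and Lyve1 was 8.27, against 8.73 to 9. The centred mean over the 7 markers was -0.53 in this sample, the lowest of all samples. In it, 0 of the 7 markers lay above their group mean. Most markers varied together, so the 42 checks were not independent.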

How the results depend on the processing

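With the wild-type diet comparison, 1 marker (Cdh5) was called, and the count was 0 with only the groups compared, 0 in set B alone, 2 (Cdh5 and Clec4g) with the array set as a block and a Y-linked covariate, 3 (with Tek) in set A alone, and 0 to 1 when single samples were left out, 0 without wild-type control replicate 8. For the diet difference between wild-type and ATF7+/- the count was 0, but 1 with array weights, under the array-set block, under that block plus the Y-linked covariate, and with all 48 arrays (Cdh5), 1 in set A alone (Clec4g), and 0 to 1 when single samples were left out. For the diet difference between wild-type and ATF7+/+, set A alone gave 2 (Cdh5 and Clec4g). For genotype labels averaged over both diets, set A alone gave 2 (Clec4g and Pecam1) for ATF7+/+ against wild-type. It gave 1 (Clec4g) for ATF7+/- against ATF7+/+, where the array set as a block gave 2 (Clec4g and Pecam1). Each of these counts was 0 in the fit of group means alone. A set alone also held fewer samples, and the cause of these changes was not tested. Over all 13542 genes the wild-type diet comparison called 487, and 139 with only the groups compared and 219 without wild-type control replicate 8. It called 2118 in set A, 639 in set B, 1254 under the block of array set and 1435 under that block plus the Y-linked covariate. For the diet difference between wild-type and ATF7+/-, 0.635% of genes were called, 2.21% under the array-set block and 2.07% in set A. With the array set alone as a block, 9.26% of all genes were called in the wild-type diet comparison. Of 25 general endothelial genes 3 were called higher there, and of 19 sinusoidal genes 3 higher and 1 lower. Replicate numbers are shared between groups. Same-numbered samples had r from 0.18 to 0.74 in ATF7+/- and from 0.30 to 0.67 in ATF7+/+ offspring, where every such pair lay in 1 array set, and from -0.47 to 0.50 in wild-type offspring, where 4 of 8 pairs crossed the sets. With the array set removed, r ran from -0.04 to 0.38, from -0.16 to 0.35 and from -0.24 to 0.10, so the numbers were not taken to pair the samples. With replicate number as a block the Cdh5 difference in wild-type offspring was 0.35 (adjusted p = 0.0169), and with the block within each genotype label 0.35 (adjusted p = 0.0329); the diet difference of Cdh5 between wild-type and ATF7+/- was then 0.43 in both fits (adjusted p = 0.0938 and 0.132), and neither block changed a call among the markers. No called difference of a marker was reversed under any alternative run.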
